A study of Homo sapiens with 24 samples.

Results

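The 4 receptors of the ERBB family (EGFR, ERBB2, ERBB3 and ERBB4) and 5 genes that neighbour ERBB2 on the long arm of chromosome 17 (GRB7, MIEN1, PGAP3, STARD3 and CDK12) were followed across a GCDH knockdown study in 3 human cancer cell lines. They were chosen by gene name, each name matched 1 row, and together they are 9 of the 60504 rows of the expression table. Cells were transfected with small interfering RNA against GCDH (siGCDH) or with a control siRNA (siControl) and collected after 48 hours. The product of GCDH is an enzyme that works in mitochondria on the breakdown of lysine and tryptophan. The cell lines were A375 (melanoma), SK-Hep1 (labelled as liver cancer) and SKBR3 (labelled as breast cancer). A375 was measured in 2 batches, so 24 libraries form 8 groups of 3. Batch 1 of A375 was read with a kit that sequences only the 3' end of each transcript, and the other 18 libraries were made from poly(A) RNA with a full-length kit, so no level was tested across the kits. Replicates were triplicate wells of a line, and p-values therefore measure the spread between wells, which may be technical. All values are TPM, which sets transcripts per length against the total of the library, and the read depth behind them is unknown.

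The ERBB receptors are tyrosine kinases of the cell surface that act in pairs. EGFR and ERBB4 bind ligands and have active kinases, ERBB3 binds neuregulins but has little kinase activity of its own and passes the signal to PI3 kinase through its partner, and ERBB2 has no known ligand and is the preferred partner of the others. In a subset of breast cancers a stretch of chromosome 17 that holds ERBB2 is amplified, and genes beside it, among them GRB7, MIEN1, PGAP3 and STARD3, are commonly raised with it. SKBR3 is a textbook line of that kind. In melanoma cells ERBB3 is the family member usually described, paired with ERBB2.

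In the annotation used (GENCODE 29, hg38), 6 of the genes lie within 286 kb of chromosome 17, from the start of CDK12 at 39461511 to the end of GRB7 at 39747291. On the plus strand are CDK12, STARD3 (39637065 to 39663484), ERBB2 (39687914 to 39730426) and GRB7 (39737927 to 39747291). PGAP3 (39671122 to 39696797) and MIEN1 (39728496 to 39730787) lie on the minus strand and overlap ERBB2 at its start and its end. EGFR is on chromosome 7 (55019021 to 55211628, plus strand), ERBB3 on chromosome 12 (56076799 to 56103505, plus strand) and ERBB4 on chromosome 2 (211375717 to 212538841, minus strand). ERBB2 shares 194 exon bases with PGAP3 and 571 with MIEN1, which is 24.9% of the exon bases of MIEN1. The strand setting of the authors' counting is not given in the sources used here, so reads from these shared stretches cannot be told apart.

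ERBB2 and PGAP3 are transcribed away from each other and start close together. The 300-base windows around their RefSeq starts (GRCh38.p14) share 136 bases, and the centre of that stretch is shown because both genes read outward from it. The capitals mark CCGGAAG, the core motif bound by ETS family factors, which occurs once on each strand:
ERBB2 and PGAP3 shared start, chr17:39688064-39688090, plus strand: tccaCTTCCGGagtaaCCGGAAGttcc
Entries were found for 7 of the 9 genes, and CCGGAAG on either strand was present in 4 of them (ERBB2, PGAP3, STARD3 and MIEN1), against 10.3% of 35116 windows of that length. ERBB2 and PGAP3 carry the same sites in their shared stretch, so they are not separate cases. GCCNNNGGC, a motif of AP-2 factors searched in the same way on both strands, was present in 2 of the 7 (EGFR and STARD3), against 23.2% of windows. Both motifs were chosen after the sequences had been seen, and a match in the letters is a description only.

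Before the results, the labels were set against the data. GCDH did not overlap between siGCDH and siControl in any line or batch, and its siGCDH mean stood at 20.8% of siControl in A375 batch 1, 17.8% in A375 batch 2, 29.3% in SK-Hep1 and 26.4% in SKBR3; in A375 batch 1 this did not pass (limma adjusted p = 0.118). The libraries labelled SKBR3 did not carry the ERBB2 level that the name calls for. With siControl they held ERBB2 at 25.5 ± 2.23 TPM (SD, n = 3), against 46.4 ± 5.12 TPM in SK-Hep1 and 32.7 ± 1.72 TPM in A375 batch 2. A list of 21 breast luminal epithelial markers summed to between 75.4 and 80.8 TPM there, against 6532 to 6809 TPM in SK-Hep1 and 451 to 470 TPM in A375 batch 2. Keratins carried the SK-Hep1 sum: KRT8, KRT18 and KRT19 averaged 9.07, 19.5 and 0.227 TPM in the libraries labelled SKBR3, against 2317, 2687 and 1262 TPM in SK-Hep1. The counts of detected markers were closer, with 10 of the 21 markers at 1 TPM or more in the libraries labelled SKBR3, 11 in SK-Hep1 and 9 in A375 batch 2, and 3, 4 and 5 listed at 0. Among single markers, CDH1, the epithelial cadherin, averaged 2.49 TPM in the libraries labelled SKBR3 and was listed at 0 in the others. CLDN3 and TFAP2B were listed at 0 in the libraries labelled SKBR3. The levels of these 3 markers were not taken for or against the name. These libraries are called the libraries labelled SKBR3 throughout, since their ERBB2 level goes against the name. Every result below that involves them carries this limit. In SK-Hep1, 6 of 7 hepatocyte markers were listed at 0 with siControl, among them ALB and APOB. In A375 batch 2, 9 melanocyte markers summed to between 573 and 602 TPM, but only 4 reached 1 TPM and SOX10 made up most of the sum at 457 TPM. The pigment genes were low there, with PMEL at 0.96 TPM, MLANA at 0.337 TPM and TYR listed at 0.

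The 3 lines differed in the makeup of the receptor family. With siControl, ERBB2 made up 71.5 ± 2.52% of the summed TPM of the 4 receptors in the libraries labelled SKBR3, and the sum itself was low at 35.8 TPM. In SK-Hep1 EGFR held 37.2 ± 2.94%, ERBB2 34.9 ± 3.25% and ERBB3 27.2 ± 0.272% of a sum of 133 TPM, and either EGFR or ERBB2 was ahead, depending on the library. In A375 batch 2 ERBB3 alone held 80.5 ± 0.432% of a sum of 192 TPM. A375 batch 1, on the 3' kit, had ERBB3 at 89.7 ± 1.18% of its sum. That kit reads only transcript ends while TPM divides by length, so shares between genes of unlike length are uncertain there.

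**Figure D1:**
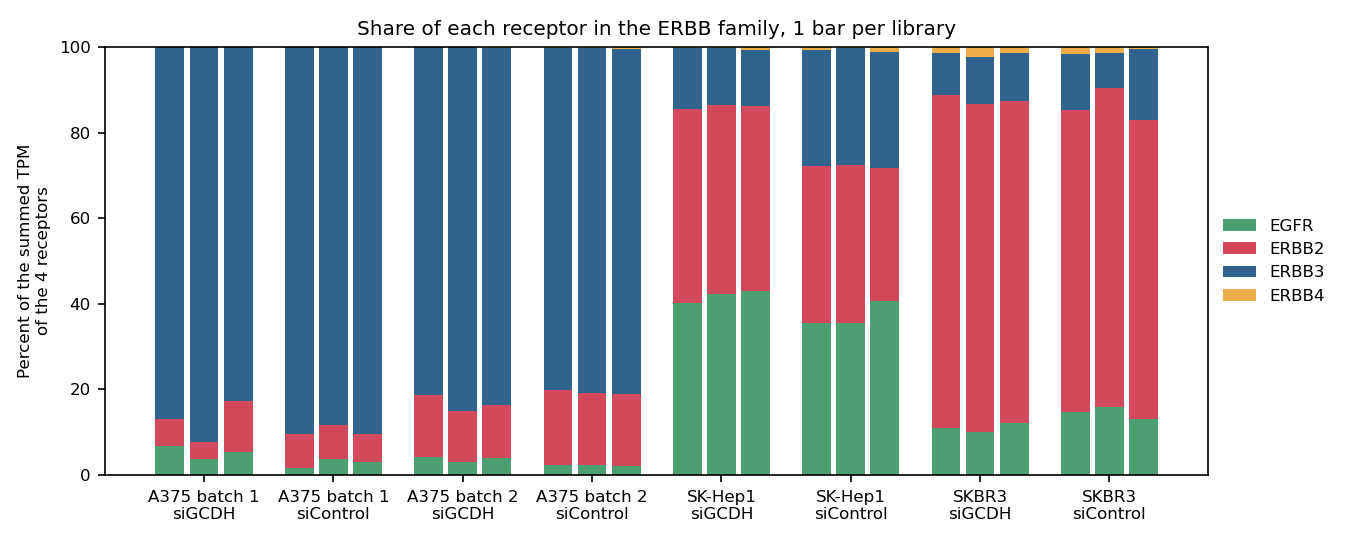
Share of each ERBB receptor in the summed TPM of the 4 receptors (vertical axis, percent), 1 bar per library, 3 libraries per group, with siGCDH left of siControl in each line or batch. ERBB3 (blue) fills most of every A375 bar, EGFR (green) and ERBB2 (red) share the SK-Hep1 bars, and ERBB2 leads in the libraries labelled SKBR3; in SK-Hep1 the ERBB3 share was 13.5% with siGCDH and 27.2% with siControl.

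Levels between lines were tested with siControl on the same kit, where most genes differ and line, culture and library preparation cannot be told apart. In limma 6 of 7 tested members passed between the libraries labelled SKBR3 and A375 batch 2 (2 higher and 4 lower), against 75.1% of all genes tested (40.5% higher and 34.5% lower). EGFR, 1 of the 2 higher, held its call under only 3 of 15 alternatives (limma adjusted p up to 0.274). ERBB2 and PGAP3, among the 4 lower, each held under 15 of 16 (limma adjusted p up to 0.158 and 0.0826). With any 1 library left out, 5 members were called. Against SK-Hep1, 6 of 8 passed (1 higher and 5 lower), where 79.3% of all genes did (50.5% higher and 28.9% lower). Between SK-Hep1 and A375 batch 2, 4 of 8 passed (3 higher and 1 lower), against 75% of all genes (29.3% higher and 45.7% lower). The ERBB2 call among these held under 15 of 16 alternatives (limma adjusted p up to 0.0517). In both comparisons with SK-Hep1, GRB7 met the filter only through its SK-Hep1 level, and it is among the calls. The libraries of the compared lines did not overlap for 6 of 9 members between those labelled SKBR3 and A375 batch 2 (77.4% of all genes tested), for 6 between those labelled SKBR3 and SK-Hep1 (80.9%), and for 4 between SK-Hep1 and A375 batch 2 (77.2%). These counts run over all 9 members, tested or not, whereas the shares are of tested genes only. In bulk RNA, fewer cells with a transcript and less of it per cell cannot be told apart.

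The largest gaps were in ERBB3 and EGFR. ERBB3 was lower in the libraries labelled SKBR3 than in A375 batch 2 by 4.85 on the log2 scale (limma log2 difference -4.85, SE 0.25, adjusted p = 2.76e-06), and lower than in SK-Hep1 (log2 difference -2.79, SE 0.25, limma adjusted p = 3.88e-05). EGFR was 11.6 times as high in SK-Hep1 as in A375 batch 2 (log2 difference 3.26, SE 0.07, limma adjusted p = 7.17e-08), and the libraries labelled SKBR3 stood far below SK-Hep1 (log2 difference -3.02, SE 0.07, limma adjusted p = 5.88e-08). Log2 differences here and below are on the log2(TPM + 1) scale, which understates changes of low genes.

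ERBB2 was the member that limma called in opposite directions in different lines: it fell in A375 batch 2 and rose in SK-Hep1 and in the libraries labelled SKBR3. In A375 batch 2 the siGCDH libraries had 24.7, 19.6 and 21.3 TPM, against 34.5, 32.7 and 31.1 TPM with siControl. All 3 siGCDH values lay below all 3 siControl values, and the log2 fold change was -0.57 (SE 0.09, limma adjusted p = 0.00348). In SK-Hep1 they had 60.0, 65.4 and 65.9 TPM with siGCDH, against 48.6, 50.0 and 40.5 TPM with siControl. Here all siGCDH values lay above, with a log2 fold change of 0.46 (SE 0.09, limma adjusted p = 0.00317). The libraries labelled SKBR3 had 45.2, 40.5 and 39.0 TPM with siGCDH, against 24.8, 23.7 and 28.0 TPM with siControl. Again the groups did not overlap, and the log2 fold change was 0.68 (SE 0.09, limma adjusted p = 0.000394). In A375 batch 1 ERBB2 was near the low end of the range, at 2.31, 1.44 and 5.20 TPM with siGCDH, against 3.44, 4.74 and 3.62 TPM with siControl. Those groups overlapped, and the log2 fold change of -0.41 had an interval from -1.32 to 0.50 (limma adjusted p = 0.564).

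The difference between responses was tested as such. Of 7 tested members 3 were higher and 1 lower in the libraries labelled SKBR3 minus A375 batch 2, where 51.4% of all genes passed (36.8% higher and 14.5% lower). Minus SK-Hep1, 2 of 8 were higher and 1 lower, where 39.5% passed (25% higher and 14.5% lower). For SK-Hep1 minus A375 batch 2, 2 of 8 were higher and 2 lower, where 46.2% passed (28.8% higher and 17.4% lower). GRB7 is among the 8 in both cases only through its SK-Hep1 level. In the last it is among the lower calls. The ERBB2 response in the libraries labelled SKBR3 exceeded that in A375 batch 2 by 1.25 on the log2 scale (SE 0.13, limma adjusted p = 1.84e-05), and that in SK-Hep1 exceeded A375 batch 2 by 1.02 (SE 0.14, limma adjusted p = 9.76e-05). Both differences passed under all 22 alternative settings and left-out libraries. Between the libraries labelled SKBR3 and SK-Hep1 the ERBB2 difference was 0.23, with an interval from -0.06 to 0.51 (limma adjusted p = 0.188). The ERBB2 calls within A375 batch 2 and SK-Hep1 were lost in a fit of all 24 libraries with 1 common spread (limma adjusted p = 0.0694 and 0.0932). That common fit pools sets of unlike spread. Replicates correlated less in A375 batch 1 (r from 0.906 to 0.925) than in the full-length groups (0.968 to 0.979). How far this moved calls of the common fit, here and below, was not tested.

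The median of all genes moved in some comparisons, with calls in both directions, and this bears on small changes. The median log2 fold change of all tested genes was -0.20 in A375 batch 1, 0.02 in A375 batch 2, 0.18 in SK-Hep1 and 0.29 in the libraries labelled SKBR3. Relative to that median, ERBB2 changed by -0.59 in A375 batch 2, 0.27 in SK-Hep1 and 0.39 in the libraries labelled SKBR3. Of all TPM, mitochondrially encoded genes took 4.88 ± 0.109% with siGCDH and 2.06 ± 0.0610% with siControl in the libraries labelled SKBR3, and in A375 batch 1 a group of 21 rows on chromosome 21 took 33.0 ± 1.65% with siGCDH and 17.1 ± 2.07% with siControl. Their part in the results was not tested.

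**Figure D2:**
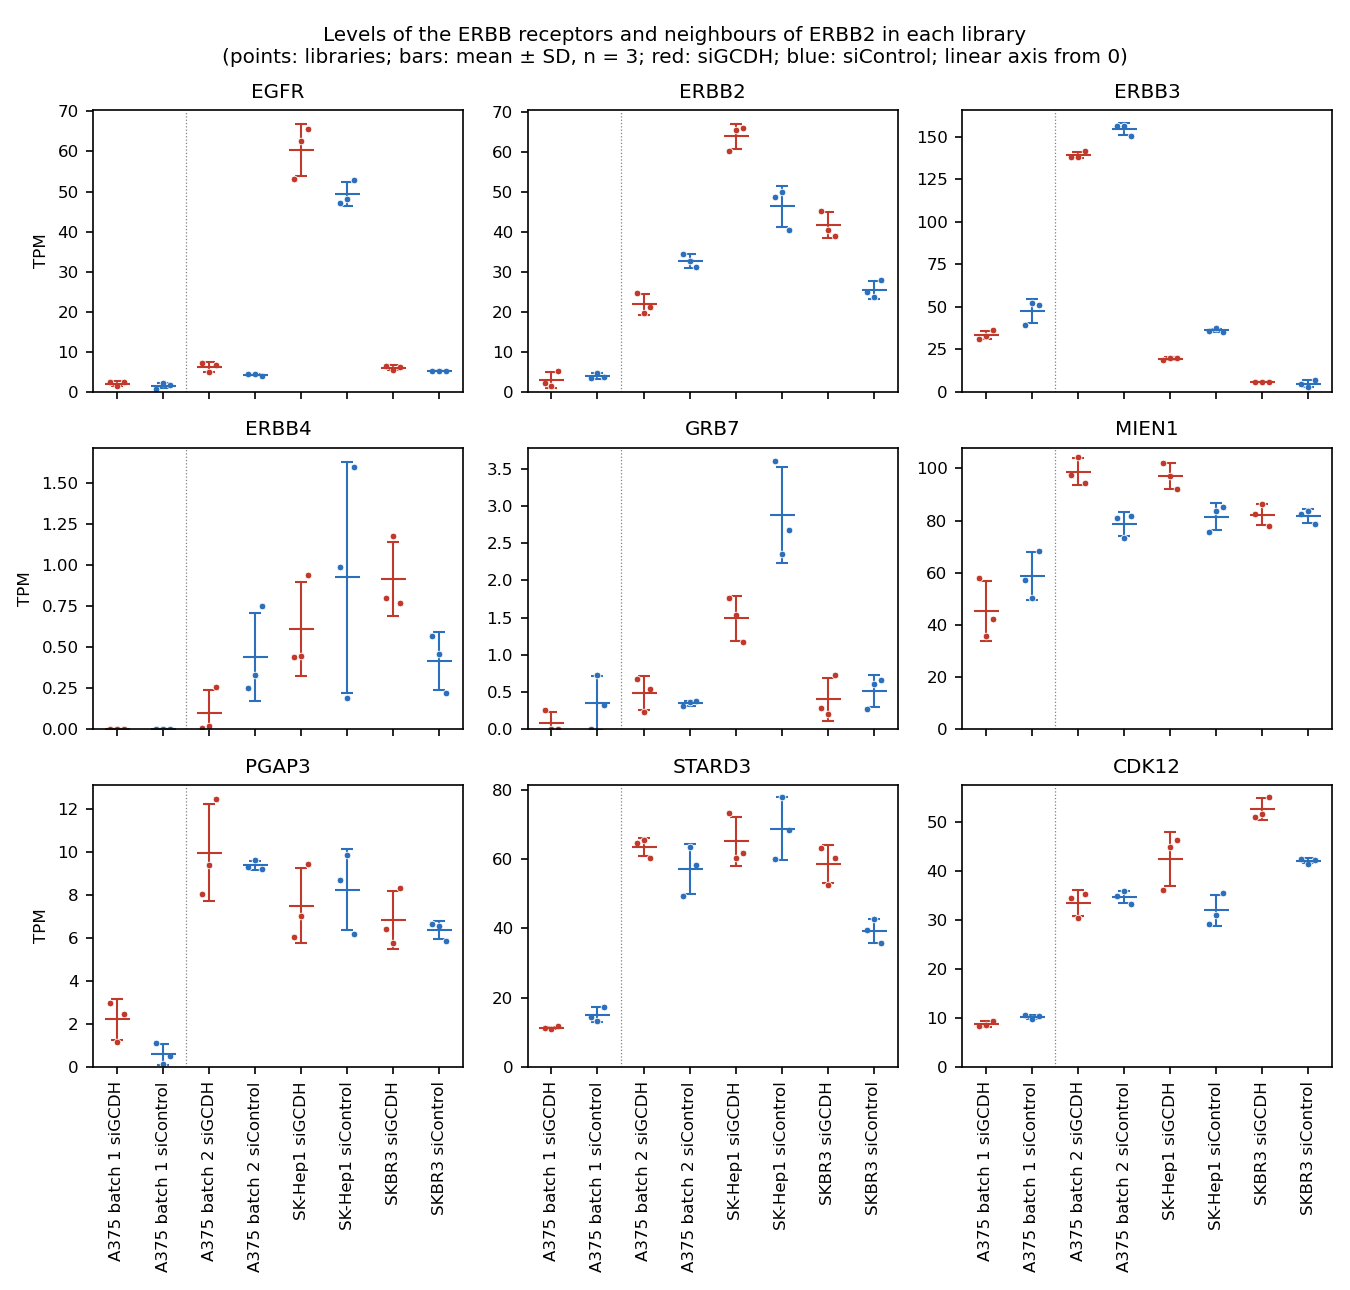
TPM of each of the 9 genes in each library (points), with the mean and SD of the 3 libraries of a group (bars), on linear axes from 0; siGCDH is red and stands left of siControl in blue, and the dotted line separates A375 batch 1, made with the 3' kit. ERBB2 has siGCDH below siControl in A375 batch 2 and above it in SK-Hep1 and in the libraries labelled SKBR3, while ERBB3 lies lower with siGCDH in SK-Hep1 (19.5 against 36.1 TPM).

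ERBB3, the neuregulin receptor with the weak kinase, fell in SK-Hep1 to about 54.0% of its siControl level. Its SK-Hep1 libraries had 18.7, 19.8 and 20.0 TPM with siGCDH, against 35.9, 37.3 and 35.2 TPM with siControl. The groups were far apart (log2 fold change -0.86, SE 0.07, limma adjusted p = 3.09e-05), and relative to the median of all genes the change was -1.04. A375 batch 2, where the gene is highest, had 138, 138 and 142 TPM with siGCDH, against 156, 156 and 151 TPM with siControl. That difference was small but without overlap (log2 fold change -0.15, SE 0.04, limma adjusted p = 0.0225). The call was lost without the variance trend (adjusted p = 0.0890), with the replicate block and in the common fit (adjusted p = 0.618). It was also lost without siControl replicate 1 (adjusted p = 0.0729) or 2 (adjusted p = 0.0801) or siGCDH replicate 1 (adjusted p = 0.0631). The libraries labelled SKBR3 held 5.74, 5.89 and 5.79 TPM with siGCDH, against 4.64, 2.60 and 6.67 TPM with siControl, so the groups overlapped (log2 fold change 0.34, limma adjusted p = 0.278); without siControl replicate 3 the change was 0.60 and passed (limma adjusted p = 0.0477). In A375 batch 1 there were 31.3, 33.0 and 36.2 TPM with siGCDH, against 39.2, 52.5 and 50.8 TPM with siControl, without overlap but with no call (log2 fold change -0.48, limma adjusted p = 0.125).

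The ERBB3 response of SK-Hep1 was lower than that of A375 batch 2 by 0.71 (log2 difference -0.71, SE 0.06, limma adjusted p = 4.40e-06). It was also below that of the libraries labelled SKBR3, whose response was higher by 1.2 (SE 0.28, limma adjusted p = 0.00617), a call lost after quantile scaling (0.70, adjusted p = 0.0857). A same-strand transcript, AC034102.2, overlaps ERBB3 with 31 shared exon bases, which is 0.343% of the exon bases of ERBB3. It averaged 59.3 TPM with siGCDH and 142 TPM with siControl in the libraries labelled SKBR3, 57.7 and 83.1 TPM in SK-Hep1, and 164 and 143 TPM in A375 batch 2.

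EGFR, the receptor of the EGF-like ligands, was mainly a transcript of SK-Hep1. It had 53.1, 62.5 and 65.7 TPM there with siGCDH, against 47.1, 48.1 and 52.9 TPM with siControl. The groups touched without overlapping (log2 fold change 0.28, SE 0.09, limma adjusted p = 0.0281), and relative to the median of all genes the change was 0.10. The call was lost after median scaling (log2 fold change 0.17, adjusted p = 0.116), after quantile scaling (adjusted p = 0.103), without the filter on low genes (adjusted p = 0.0603), without the variance trend (adjusted p = 0.0563), in the common fit (adjusted p = 0.242), and without siControl replicate 1 (adjusted p = 0.0833) or 2 (adjusted p = 0.0759) or siGCDH replicate 2 (adjusted p = 0.0866) or 3 (adjusted p = 0.0918). A375 batch 2 had 7.13, 4.85 and 6.61 TPM with siGCDH, against 4.37, 4.35 and 4.04 TPM with siControl. Every siGCDH value was above, but the log2 fold change of 0.44 did not pass (SE 0.15, limma adjusted p = 0.0606). It passed without siGCDH replicate 2 (0.58, limma adjusted p = 0.0173) and after quantile or median scaling (adjusted p = 0.0491 and 0.0465). The libraries labelled SKBR3 had 6.43, 5.34 and 6.25 TPM with siGCDH, against 5.19, 5.10 and 5.30 TPM with siControl, again without overlap but with no call (log2 fold change 0.17, interval -0.09 to 0.43, limma adjusted p = 0.207); after quantile scaling the change was -0.38 (adjusted p = 0.0200). A375 batch 1 lay between 1.32 and 2.44 TPM with siGCDH, and between 0.75 and 2.18 TPM with siControl. The EGFR response passed in none of the 3 tests between lines, with log2 differences of -0.27 and -0.11 for the libraries labelled SKBR3 against A375 batch 2 and SK-Hep1 and of -0.16 for SK-Hep1 against A375 batch 2. Against A375 batch 2 it passed in the libraries labelled SKBR3 after quantile scaling (log2 difference -0.81, limma adjusted p = 0.00131), after median scaling (-0.46, adjusted p = 0.0324) and without siGCDH replicate 2 of A375 batch 2 (-0.41, adjusted p = 0.0290).

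ERBB4, the second neuregulin receptor, was close to absent. It was listed at 0 in all 6 libraries of A375 batch 1. The highest values elsewhere were 1.18 TPM in the siGCDH libraries labelled SKBR3 and 1.60 TPM in SK-Hep1 with siControl. Since its mean was under 1 TPM in every fit, it was not tested.

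GRB7, an adaptor that docks on activated ERBB2 and is normally raised with it when the region is amplified, was low in all libraries. It reached 1.77, 1.53 and 1.17 TPM in SK-Hep1 with siGCDH, against 3.6, 2.35 and 2.68 TPM with siControl. The groups did not overlap, and the log2 fold change was -0.63 (SE 0.20, limma adjusted p = 0.0265). This call was lost without the filter on low genes (adjusted p = 0.0594), and without siControl replicate 1 (adjusted p = 0.0920) or 3 (adjusted p = 0.0554) or siGCDH replicate 2 (adjusted p = 0.0570) or 3 (adjusted p = 0.0773). GRB7 did not exceed 0.73 TPM in any other library, the libraries labelled SKBR3 included, where it was between 0.20 and 0.73 TPM with siGCDH and between 0.27 and 0.66 TPM with siControl. The siControl level of those libraries was below SK-Hep1 (log2 difference -1.35, SE 0.19, limma adjusted p = 0.000367). With siControl GRB7 averaged 0.513 TPM in the libraries labelled SKBR3 and 2.88 TPM in SK-Hep1. It met the filter of that fit only through SK-Hep1, so its p-value is no separate evidence of a difference. In the SK-Hep1 knockdown ERBB2 and GRB7 thus passed in opposite directions, with log2 fold changes of 0.46 and -0.63.

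MIEN1, a small membrane-linked protein associated with cell migration, was the most even of the set: its siControl mean was 81.7 TPM in the libraries labelled SKBR3, 81.5 TPM in SK-Hep1 and 78.6 TPM in A375 batch 2. The intervals of its line differences ran no further than -0.14 to 0.21 on the log2 scale, although after median scaling SK-Hep1 was higher than A375 batch 2 by 0.24 (limma adjusted p = 0.0171). With siGCDH it had 97.3, 104 and 94.4 TPM in A375 batch 2, against 81.0, 73.2 and 81.8 TPM with siControl. The rise was without overlap (log2 fold change 0.32, SE 0.06, limma adjusted p = 0.00679), and it was lost in the common fit (adjusted p = 0.0785). SK-Hep1 had 102, 97.1 and 92.1 TPM with siGCDH, against 75.6, 83.8 and 85.1 TPM with siControl, also without overlap (log2 fold change 0.25, SE 0.07, limma adjusted p = 0.0128). Relative to the median of all genes that change was 0.07, and after median scaling it no longer passed (log2 fold change 0.13, adjusted p = 0.155), nor after quantile scaling (0.14, adjusted p = 0.121) or in the common fit (adjusted p = 0.117). In the libraries labelled SKBR3 MIEN1 had 82.5, 86.3 and 78.1 TPM with siGCDH, against 82.7, 83.7 and 78.7 TPM with siControl (log2 fold change 0.01, interval -0.12 to 0.14, limma adjusted p = 0.885), and after median scaling it was lower by 0.23 there (log2 fold change -0.23, limma adjusted p = 0.0116). The MIEN1 response of these libraries was below that of A375 batch 2 (log2 difference -0.31, SE 0.08, limma adjusted p = 0.00805), a call lost in the common fit (adjusted p = 0.186).

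PGAP3, which remodels the lipid anchor of GPI-linked proteins and shares its start region with ERBB2, did not pass in any knockdown comparison. Its mean was 9.97 ± 2.28 TPM with siGCDH and 9.37 ± 0.206 TPM with siControl in A375 batch 2, 7.50 ± 1.74 and 8.25 ± 1.88 TPM in SK-Hep1, and 6.83 ± 1.33 and 6.37 ± 0.432 TPM in the libraries labelled SKBR3. The groups overlapped in all 3. Beside the ERBB2 changes of -0.57, 0.46 and 0.68, PGAP3 gave 0.06 (interval -0.29 to 0.41), -0.12 (-0.57 to 0.34) and 0.08 (-0.25 to 0.41) in A375 batch 2, SK-Hep1 and the libraries labelled SKBR3. The gap between the ERBB2 and PGAP3 changes was not itself tested. After quantile scaling PGAP3 was lower in the libraries labelled SKBR3 (log2 fold change -0.43, limma adjusted p = 0.0386).

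STARD3, a cholesterol-binding protein of late endosomes, rose in the libraries labelled SKBR3. It had 63.2, 52.6 and 60.5 TPM with siGCDH, against 39.5, 42.8 and 35.8 TPM with siControl. The groups did not overlap (log2 fold change 0.57, SE 0.09, limma adjusted p = 0.00132), and relative to the median of all genes the change was 0.27. Its siControl level there was the lowest of the full-length groups, below SK-Hep1 by 0.79 and below A375 batch 2 by 0.52 on the log2 scale (log2 differences -0.79 and -0.52, limma adjusted p = 0.000371 and 0.00342). In SK-Hep1 it had 73.3, 60.5 and 61.8 TPM with siGCDH, against 60.1, 78.0 and 68.5 TPM with siControl, with overlap (log2 fold change -0.08, limma adjusted p = 0.585). A375 batch 2 ran from 60.5 to 65.4 TPM with siGCDH and from 49.3 to 63.6 TPM with siControl (log2 fold change 0.16, limma adjusted p = 0.227). The STARD3 response of the libraries labelled SKBR3 exceeded that of SK-Hep1 by 0.64 (SE 0.16, limma adjusted p = 0.00746), and that of A375 batch 2 by 0.41 (SE 0.14, limma adjusted p = 0.0315), which after median scaling was 0.18 (adjusted p = 0.330).

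CDK12, a kinase that phosphorylates RNA polymerase II during elongation and lies farthest from ERBB2 of the set, rose in 2 settings. The libraries labelled SKBR3 had 51.0, 51.7 and 55.2 TPM with siGCDH, against 42.5, 41.6 and 42.3 TPM with siControl. All siGCDH values were above (log2 fold change 0.31, SE 0.05, limma adjusted p = 0.00165), but relative to the median of all genes the change was 0.02, and after median scaling it was 0.08 and did not pass (adjusted p = 0.233). SK-Hep1 had 36.1, 44.9 and 46.3 TPM with siGCDH, against 29.3, 31.1 and 35.5 TPM with siControl (log2 fold change 0.39, SE 0.11, limma adjusted p = 0.0186). The SK-Hep1 call was lost after median scaling (adjusted p = 0.0532), and without siControl replicate 1 (adjusted p = 0.0608) or 2 (adjusted p = 0.0521) or siGCDH replicate 2 (adjusted p = 0.0638) or 3 (adjusted p = 0.0645). CDK12 in A375 batch 2 ran from 30.4 to 35.3 TPM with siGCDH and from 33.4 to 35.9 TPM with siControl, with no call (log2 fold change -0.05, limma adjusted p = 0.618). The CDK12 response exceeded that of A375 batch 2 by 0.37 in the libraries labelled SKBR3 (SE 0.09, limma adjusted p = 0.00466) and by 0.45 in SK-Hep1 (SE 0.14, limma adjusted p = 0.0242). The first of these was 0.14 after median scaling and did not pass (limma adjusted p = 0.126).

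A375 batch 1 gave lower levels on its 3' kit and wide intervals for the neighbours. PGAP3 had 2.98, 1.16 and 2.47 TPM with siGCDH, against 1.11, 0.12 and 0.49 TPM with siControl, without overlap (log2 fold change 1.03, SE 0.46, limma adjusted p = 0.217). It averaged 0.573 TPM with siControl and met the filter only through siGCDH, so its p-values here are no separate evidence of a difference. STARD3 had 11.1, 10.9 and 11.7 TPM with siGCDH, against 14.5, 13.3 and 17.4 TPM with siControl (log2 fold change -0.39, limma adjusted p = 0.258), and CDK12 had 8.24, 8.57 and 9.34 TPM, against 10.5, 9.78 and 10.4 TPM. MIEN1 had 58.0, 35.7 and 42.3 TPM, against 57.4, 50.4 and 68.4 TPM, with overlap. None of these passed in the batch's own fit, while the common fit of 24 libraries called PGAP3, STARD3, MIEN1 and ERBB3 (limma adjusted p = 0.00214, 0.0119, 0.0177 and 0.0250). The common fit takes its spread largely from the full-length libraries, whose replicates correlated more closely than those of this batch. Between the 2 A375 batches the responses of 0 of 7 members differed in limma (4 at an unadjusted p under 0.05, and 2 in the common fit), where 5.23% of all genes passed (0.447% higher and 4.78% lower).

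Counted over the set, limma called 3 of 7 tested members in A375 batch 2 (1 higher and 2 lower), where it called 33.6% of all genes (17.9% higher and 15.7% lower). In SK-Hep1 it called 6 of 8 (4 higher and 2 lower), against 55.5% of all genes (37.3% higher and 18.2% lower), and in the libraries labelled SKBR3 3 of 7 (3 higher), against 62.1% (47.3% higher and 14.7% lower). In A375 batch 1 it called 0 of 7, against 7.91% of all genes (1.18% higher and 6.73% lower), with 1 at an unadjusted p under 0.05 and 4 called in the common fit. PGAP3, among those 7 and those 4, met the filter only through its siGCDH level. With 7 or 8 members a count near these shares is no result about the set. The 2 knockdown groups were without overlap for 4 of 9 members in A375 batch 1 (30.8% of all genes tested), 4 in A375 batch 2 (48.4%), 6 in SK-Hep1 (63.1%) and 5 in the libraries labelled SKBR3 (68.1%). These counts run over all 9 members, tested or not, whereas the shares are of tested genes only. The 5 include ERBB4, which was too low to test (0.77 to 1.18 TPM with siGCDH, 0.22 to 0.57 TPM with siControl).

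**Figure D3:**
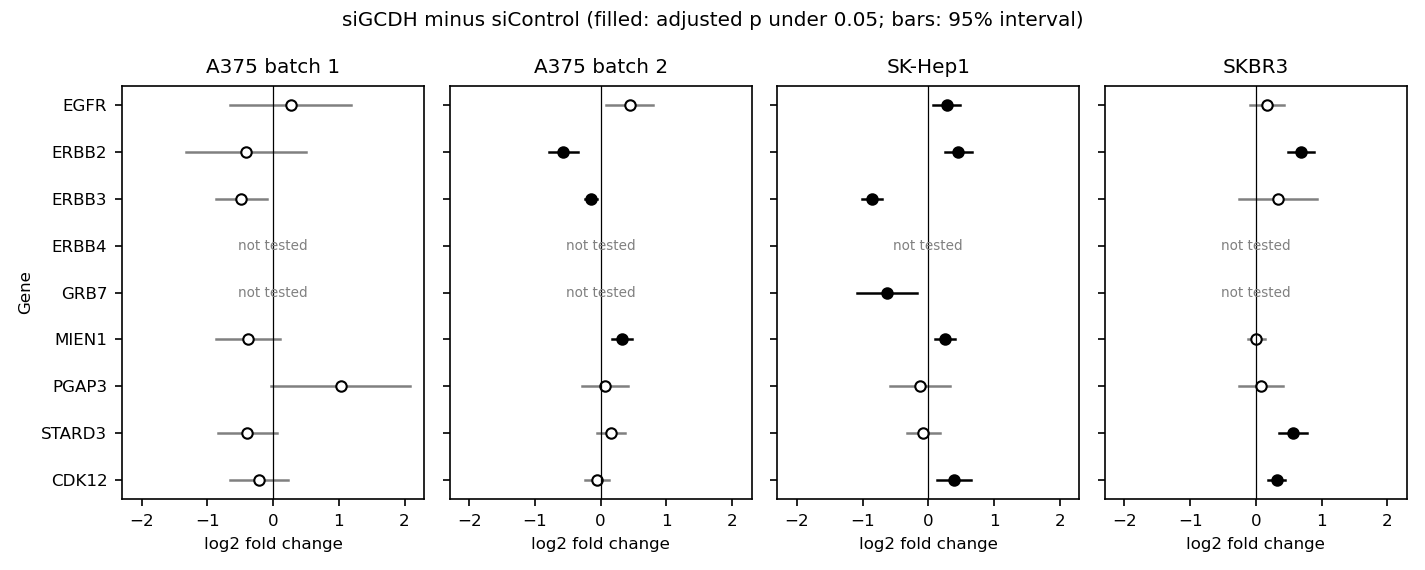
Log2 fold change (siGCDH minus siControl, horizontal axis) of each gene with its 95% interval in the 4 knockdown comparisons, filled where the limma adjusted p was under 0.05; GRB7 and ERBB4 were too low to test in some fits. ERBB2 lies left of 0 in A375 batch 2 (-0.57) and right of 0 in SK-Hep1 (0.46) and in the libraries labelled SKBR3 (0.68), and ERBB3 lies farthest left in SK-Hep1 (-0.86).

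The wider stretch of chromosome 17 was described with a list of 26 further genes, some between the members and some beyond them. Between the libraries labelled SKBR3 and A375 batch 2, 7 of 21 tested genes were higher and 9 lower with siControl (40.5% and 34.5% of all genes), and against SK-Hep1 5 were higher and 10 lower (50.5% and 28.9%). The list's median log2 difference was 0.01 and -0.16, beside 0.10 and 0.34 over all genes. MED24, a Mediator subunit, stood at 101 ± 3.74 TPM in the libraries labelled SKBR3 and 47.9 ± 5.48 TPM in A375 batch 2. TOP2A, a topoisomerase of dividing cells that is sometimes amplified with ERBB2, stood at 203 ± 6.45 TPM, against 115 ± 2.77 TPM in SK-Hep1 and 111 ± 0.84 TPM in A375 batch 2. LASP1, an actin-binding protein, was at 24.1 ± 0.342 TPM, against 330 ± 3.96 TPM in SK-Hep1 and 112 ± 3.02 TPM in A375 batch 2. Of the 6 members on chromosome 17, CDK12 alone was higher than in both other lines in these tests, by 0.27 and 0.39 on the log2 scale.

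**Figure D4:**
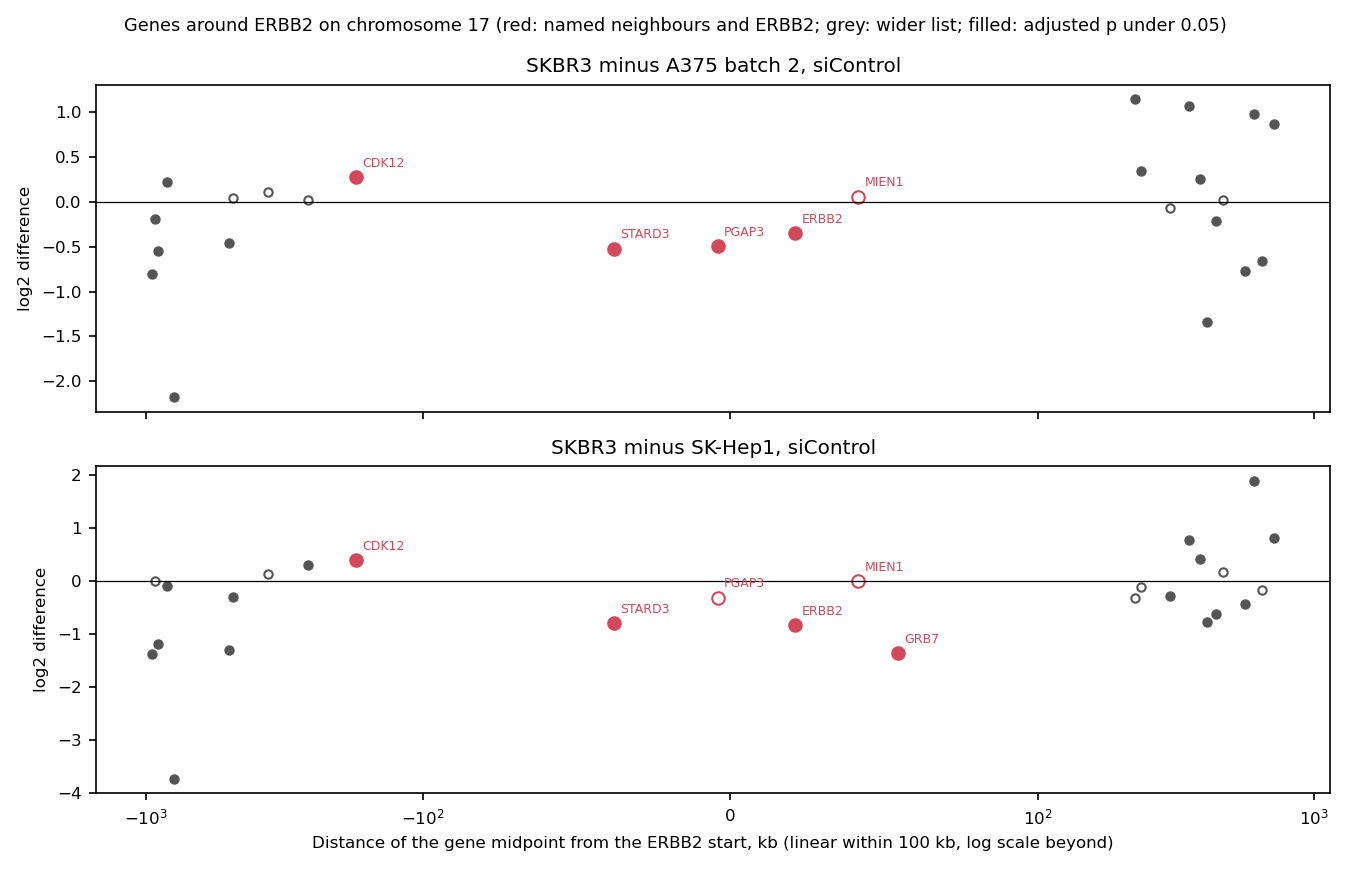
Log2 difference in siControl level (vertical axes) between the libraries labelled SKBR3 and A375 batch 2 (top) or SK-Hep1 (bottom) for tested genes around ERBB2, by distance of the gene's midpoint from the ERBB2 start in kb (linear within 100 kb, log scale beyond); red marks ERBB2 and the 5 neighbours, grey the wider list, and filled points passed limma. STARD3 and ERBB2 lie below 0 in both panels (ERBB2 at -0.35 and -0.83), and only CDK12 of the red points is filled above 0.

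With the knockdown, the list had 3 genes higher and 5 lower of 21 tested in A375 batch 2 (17.9% and 15.7% of all genes), 6 and 8 of 21 in SK-Hep1 (37.3% and 18.2%), and 8 and 8 of 23 in the libraries labelled SKBR3 (47.3% and 14.7%). Its median log2 fold changes were -0.01, -0.02 and 0.05, beside 0.02, 0.18 and 0.29 over all genes. In A375 batch 1, 0 were higher and 5 lower of 18 tested (1.18% and 6.73% of all genes). The list median there was -0.48, beside -0.20. PSMB3, RPL19 and PSMD3 had the smallest adjusted p among these (log2 fold changes -1.09, -0.45 and -0.57). Their calls held under 15, 13 and 5 of 16 alternatives. After median scaling RPL19 and PSMD3 no longer passed (limma adjusted p = 0.102 and 0.236). TOP2A rose in SK-Hep1 to 220 ± 19.6 TPM, against 115 ± 2.77 TPM with siControl (log2 fold change 0.92, limma adjusted p = 2.52e-05), and in the libraries labelled SKBR3 to 334 ± 6.22 TPM, against 203 ± 6.45 TPM. TOP2A fell in A375 batch 2 (90.9 ± 1.89 against 111 ± 0.84 TPM, log2 fold change -0.29). NR1D1, a clock repressor, rose to 22.1 ± 0.225 TPM in A375 batch 2, against 9.40 ± 1.15 TPM with siControl, and to 12.8 ± 1.69 TPM in SK-Hep1, against 5.94 ± 0.281 TPM. MED24 fell in the libraries labelled SKBR3 (51.2 ± 2.38 against 101 ± 3.74 TPM, log2 fold change -0.96).

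The ligands of the receptors formed a different set in each line. The leading one of A375 batch 2 was TGFA, a ligand of EGFR, at 363 ± 21.1 TPM with siGCDH and 275 ± 6.09 TPM with siControl (log2 fold change 0.40, SE 0.05, limma adjusted p = 0.000867, and 0.0513 in the common fit). AREG, another EGFR ligand, rose there to 6.66 ± 0.793 TPM, against 2.34 ± 0.214 TPM (log2 fold change 1.19, SE 0.14). In SK-Hep1 the leading ones were EREG, which binds EGFR and ERBB4, and NRG1, the neuregulin that binds ERBB3. EREG fell to 84.3 ± 6.81 TPM with siGCDH, against 217 ± 21.4 TPM with siControl (log2 fold change -1.35, SE 0.08), and NRG1 to 121 ± 1.69 TPM, against 176 ± 7.70 TPM (log2 fold change -0.54, SE 0.05), the NRG1 call being lost in the common fit (limma adjusted p = 0.226). HBEGF rose there to 12.5 ± 1.00 TPM, against 5.70 ± 0.369 TPM (log2 fold change 1.01). Both ERBB3 and its ligand NRG1 were thus lower in SK-Hep1.

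The libraries labelled SKBR3 held little ligand transcript of any kind. Their 11 ligands summed to between 12.3 and 17.7 TPM with siGCDH and between 7.40 and 13.1 TPM with siControl, whereas the siControl sums were 396 to 425 TPM in SK-Hep1 and 299 to 303 TPM in A375 batch 2. NRG1 was listed at 0 in their 3 siControl libraries, and NRG2 passed narrowly, at 4.16 ± 1.23 TPM with siGCDH, against 1.84 ± 0.964 TPM (log2 fold change 0.89, limma adjusted p = 0.0262). That call was lost after quantile scaling (0.23, limma adjusted p = 0.519), after median scaling (adjusted p = 0.0637), without the filter on low genes (adjusted p = 0.0634), and without siControl replicate 1 (adjusted p = 0.0811) or 2 (adjusted p = 0.0759) or siGCDH replicate 2 (adjusted p = 0.0644) or 3 (adjusted p = 0.0864). Of the ligands tested, limma called 3 higher and 1 lower of 7 in A375 batch 2 (17.9% and 15.7% of all genes), 2 higher and 3 lower of 5 in SK-Hep1 (37.3% and 18.2%), and 1 higher and 0 lower of 3 in the libraries labelled SKBR3 (47.3% and 14.7%). The ligands' median log2 fold changes were 0.40, -0.54 and 0.35, beside 0.02, 0.18 and 0.29 over all genes.

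Among 6 genes of ligand shedding, ADAM10, a protease that cuts ligands from the cell surface, fell in all 3 full-length comparisons. It stood at 99.4 ± 6.44 TPM with siGCDH and 138 ± 11.7 TPM with siControl in A375 batch 2, at 73.9 ± 9.77 and 137 ± 9.90 TPM in SK-Hep1, and at 31.3 ± 2.57 and 42.1 ± 1.67 TPM in the libraries labelled SKBR3 (log2 fold changes -0.47, -0.89 and -0.42, limma adjusted p = 0.00301, 0.000218 and 0.00186). In the common fit the SK-Hep1 call held, and those in A375 batch 2 and in the libraries labelled SKBR3 were lost (limma adjusted p = 0.212 and 0.169). RHBDF2, which escorts the protease ADAM17 to the surface, fell in SK-Hep1 to 6.46 ± 0.454 TPM, against 23.0 ± 2.42 TPM. Its relative RHBDF1 rose there to 24.1 ± 2.48 TPM, against 15.0 ± 0.898 TPM. Of the shedding genes tested, 2 were higher and 1 lower of 6 in A375 batch 2 (17.9% and 15.7% of all genes), 1 and 3 of 5 in SK-Hep1 (37.3% and 18.2%), and 2 and 2 of 5 in the libraries labelled SKBR3 (47.3% and 14.7%), with list medians of -0.11, -0.19 and 0.12.

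Of 12 adaptors and signal proteins, all tested, 1 was higher and 4 lower in A375 batch 2 (17.9% and 15.7% of all genes), 2 and 3 in SK-Hep1 (37.3% and 18.2%), and 4 and 2 in the libraries labelled SKBR3 (47.3% and 14.7%). The list's median log2 fold changes were -0.01, -0.12 and -0.06, beside 0.02, 0.18 and 0.29 over all genes. In A375 batch 1, 0 were higher and 2 lower of 11 tested (1.18% and 6.73% of all genes). PTPN11, the phosphatase SHP2 that carries the signal to RAS, fell in A375 batch 2 to 45.2 ± 4.26 TPM, against 90.9 ± 5.33 TPM (log2 fold change -1.0), and in the libraries labelled SKBR3 to 65.3 ± 0.826 TPM, against 90.9 ± 6.08 TPM (log2 fold change -0.47). It was lower in A375 batch 1 as well (25.2 ± 0.415 against 46.9 ± 3.44 TPM, log2 fold change -0.87, limma adjusted p = 0.0150), where 7.91% of all genes passed and the call was lost after either scaling (limma adjusted p = 0.0586 with quantile and 0.0529 with median), without the variance trend (adjusted p = 0.0616), with the replicate block (adjusted p = 0.0546), and without siControl replicate 3 (adjusted p = 0.0599) or siGCDH replicate 1 (adjusted p = 0.0519). PIK3CB, a catalytic subunit of PI3 kinase, rose in SK-Hep1 to 49.9 ± 2.97 TPM, against 29 ± 2.68 TPM, and in the libraries labelled SKBR3 to 25.8 ± 0.313 TPM, against 13.9 ± 3.48 TPM. SHC1, a docking adaptor of the receptors, fell in SK-Hep1 to 229 ± 12.5 TPM, against 332 ± 5.84 TPM.

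Of 12 negative regulators and turnover genes, 11 were tested in each full-length comparison: 3 were higher and 3 lower in A375 batch 2 (17.9% and 15.7% of all genes), 4 and 3 in SK-Hep1 (37.3% and 18.2%), and 5 and 4 in the libraries labelled SKBR3 (47.3% and 14.7%). The list's median log2 fold changes were -0.02, 0.20 and 0.18, beside 0.02, 0.18 and 0.29 over all genes. In A375 batch 1, 0 were higher and 1 lower of 10 tested (1.18% and 6.73% of all genes). LRIG1, a membrane protein that speeds receptor breakdown, rose in SK-Hep1 to 12.5 ± 1.98 TPM, against 3.94 ± 0.43 TPM (log2 fold change 1.45, SE 0.14). ERRFI1, an inhibitor of the receptor kinases, fell in A375 batch 2 to 102 ± 4.92 TPM, against 133 ± 5.36 TPM, and in SK-Hep1 to 33.2 ± 2.23 TPM, against 50.4 ± 1.55 TPM; the A375 batch 2 call was lost in the common fit (limma adjusted p = 0.0659). STUB1, a ubiquitin ligase that acts on ERBB2 held by chaperones, rose in the libraries labelled SKBR3 to 425 ± 6.69 TPM, against 250 ± 16.2 TPM (log2 fold change 0.76), and did not pass in the common fit (limma adjusted p = 0.0752). USP8, which removes ubiquitin from internalised receptors, fell in both A375 batches (log2 fold changes -0.86 in batch 1 and -0.71 in batch 2), though in batch 1 the call held under 8 of 16 alternatives and was lost, among others, without siControl replicate 2 or 3 or any 1 of the siGCDH replicates (limma adjusted p up to 0.0766).

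Across the 18 full-length libraries, the genes whose log2 level followed a member most closely were named by Pearson's r over 11745 genes, as a description of libraries that share line, treatment and kit. For ERBB2 the closest was TK2, a mitochondrial thymidine kinase (r = 0.984), followed by PDE8A (r = 0.972) and RAB5B (r = 0.961). TK2 had 49.4 TPM with siGCDH and 22.6 TPM with siControl in SK-Hep1, 19.7 and 6.82 TPM in the libraries labelled SKBR3, and 5.19 and 11.6 TPM in A375 batch 2. ERBB3 was followed by AMIGO2 (r = 0.994), EGFR by ATP8B1 (r = 0.994), GRB7 by BTN3A1 (r = 0.963) and CDK12 by KIF1B (r = 0.974). GRB7 averaged 1 TPM over these libraries only through SK-Hep1, so each r of GRB7 sets SK-Hep1 against values near the floor. The closest genes were less close for MIEN1 (CNEP1R1, r = 0.878), STARD3 (CYTH2, r = 0.883) and PGAP3 (MED12, r = 0.833). Among the members themselves ERBB2 was nearest to EGFR (r = 0.785), and its r was 0.591 with GRB7, 0.428 with STARD3, -0.0026 with MIEN1 and -0.203 with PGAP3.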

How the data were processed

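The authors deposited TPM, with a column for each library. The submitters' processing notes name hg38, RSEM 1.3.1, STAR 2.7.0d and cutadapt 2.3. Neither the annotation version nor the strand setting is stated there. TPM keep no read totals, so depth is unknown. Groups come from the sample labels. Values were taken to log2(TPM + 1), genes averaging 1 TPM or more over the fitted libraries were kept, and limma 3.58.1 (R 4.3.3; lmFit, eBayes with a mean-variance trend) was fitted to all of them, with two-sided tests, Benjamini-Hochberg adjustment over all genes and calls at an adjusted p under 0.05. Each knockdown and each line comparison used its 6 libraries, and differences between responses used 12. Of the row identifiers, 94.2% were in GENCODE 29. Promoter windows came from RefSeq (GRCh38.p14). Same-numbered replicates did not deviate together (r from -0.147 to 0.139), so no pairing was used. The members and lists were chosen with earlier results of these data known. Named genes were all members and, per list and comparison, the 3 called genes with the smallest adjusted p, some given only in the counts. Fits were also run on simulated data with planted changes, independent noise and no library-wide shift. That run cannot speak to the shifts of the median described above. Alternatives were pseudocounts of 0.1 and 5, no filter or 5 TPM, quantile and median scaling, no trend, robust eBayes, a replicate block, a joint fit of 24 libraries and leaving out each library.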

Additional observations from a re-analysis of the deposited data

Results flagged for a closer look

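The knockdown responses of the members differed between lines in 11 tests of the difference itself (limma, adjusted over all genes). Against A375 batch 2, the response in the libraries labelled SKBR3 was higher for ERBB2 (1.25), STARD3 (0.41) and CDK12 (0.37) and lower for MIEN1 (-0.31), where 51.4% of all genes passed. Against SK-Hep1 it was higher for ERBB3 (1.2) and STARD3 (0.64) and lower for MIEN1 (-0.24), where 39.5% passed. In SK-Hep1 against A375 batch 2 it was higher for ERBB2 (1.02) and CDK12 (0.45) and lower for ERBB3 (-0.71) and GRB7 (-0.76), where 46.2% passed. GRB7 averaged 0.483 TPM with siGCDH and 0.35 TPM with siControl in A375 batch 2. It entered that fit only through its SK-Hep1 level, so its difference sets SK-Hep1 against values near the floor. Between the A375 batches 0 of 7 members passed, where limma called 5.23% of all genes.

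Under 22 alternatives each, ERBB2 passed throughout against A375 batch 2 in both tests (log2 difference from 1.03 to 1.34 in the libraries labelled SKBR3 and from 0.91 to 1.11 in SK-Hep1). So did ERBB3 in SK-Hep1 against A375 batch 2 (from -0.82 to -0.60) and STARD3 in the libraries labelled SKBR3 against SK-Hep1 (from 0.52 to 0.73). Under 21 of 22 passed ERBB3 against SK-Hep1 (lost with quantile scaling, 0.70, limma adjusted p = 0.0857), and in the libraries labelled SKBR3 against A375 batch 2 CDK12 (lost with median scaling, 0.14, adjusted p = 0.126) and MIEN1 (lost in the joint fit of all libraries, adjusted p = 0.186). STARD3 against A375 batch 2 passed under 11, with a limma adjusted p of up to 0.330 under changed settings. It was also lost when any of these was left out: from A375 batch 2 siControl replicates 2 and 3 and siGCDH replicate 3, and from the libraries labelled SKBR3 replicates 1 and 3 of both treatments (limma adjusted p up to 0.0747 among these). MIEN1 against SK-Hep1 passed under 10, with a limma adjusted p of up to 0.379 under changed settings. It was also lost when any of these was left out: from SK-Hep1 siControl replicate 1 and siGCDH replicates 1 and 2, and from the libraries labelled SKBR3 siControl replicates 1 and 2 and siGCDH replicates 1 and 3 (up to 0.0938 among these). GRB7 passed under 15 of 21, and was lost, among others, without siGCDH replicate 1 or 3 of A375 batch 2, or siControl replicate 1 or siGCDH replicate 3 of SK-Hep1 (up to 0.0682). CDK12 in SK-Hep1 passed under 17 of 22, and was lost without replicate 2 of either A375 batch 2 group, or siControl replicate 1 or siGCDH replicate 2 or 3 of SK-Hep1 (up to 0.0591).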

How the results depend on the processing

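Median and quantile scaling turned the sign of several changes in the libraries labelled SKBR3. There the log2 fold change turned negative for EGFR (-0.38 with quantile and -0.030 with median scaling), PGAP3 (-0.43 and -0.13), MIEN1 (-0.075 and -0.23), ERBB3 (-0.23, quantile) and HSP90AA1 (-0.047, median), and quantile scaling called 5 members against 3. Responses in these libraries minus A375 batch 2 turned for PGAP3 (-0.54 and -0.18), ERBB3 (-0.075, quantile) and GCDH (-0.27, quantile), and minus SK-Hep1 for PGAP3 (-0.21, quantile). Line differences turned for MIEN1 against SK-Hep1 (-0.066 and -0.13) and for CDK12 in SK-Hep1 against A375 batch 2 (0.060 and 0.062). Between A375 batches they turned for EGFR (0.037 and 0.095) and CDK12 (0.068 and 0.056). None of these had passed, HSP90AA1 excepted, and in the libraries labelled SKBR3 EGFR and PGAP3 then passed as lower with quantile scaling (limma adjusted p = 0.0200 and 0.0386). In SK-Hep1 median scaling left 3 members called, against 6.

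The number of genes called in A375 batch 1 was 1018, against 590 without a filter, 516 with quantile and 501 with median scaling, 85 without trend and 357 with the replicate block, and 5558 with 4 members in the joint fit. PGAP3 is among those 4 and met the filter only through its siGCDH level. The joint fit called 2802 genes and 0 members in A375 batch 2, 3 members in SK-Hep1 and 3 between the libraries labelled SKBR3 and A375 batch 2. For differences of response it called 5545 genes with 2 members (those libraries minus A375 batch 2), 3659 (minus SK-Hep1), 4315 (SK-Hep1 minus A375 batch 2) and 2476 with 2 members (between batches, 772 in the separate fit). Between batches, 222 were called with quantile and 182 with median scaling, 225 without trend and 484 with the replicate block. Calls split into 152 higher and 866 lower in A375 batch 1 (207 and 294 with median scaling), 5432 and 2644 in SK-Hep1 (4200 and 3341), and 7805 and 2431 in the libraries labelled SKBR3 (5043 and 4171). For differences of response the splits were 6196 and 2447 (4237 and 3739) for those libraries minus A375 batch 2, 4120 and 2384 (3196 and 3362) minus SK-Hep1, 4485 and 2698 (3608 and 3326) for SK-Hep1 minus A375 batch 2, and 66 and 706 (95 and 87) between batches.

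The replicate numbers share only a number; with them as a block ERBB3 in A375 batch 2 no longer passed (limma adjusted p = 0.0686), nor did EGFR between the libraries labelled SKBR3 and A375 batch 2 (0.106) or MIEN1 between responses of those libraries and SK-Hep1 (0.0507), while STARD3 passed between SK-Hep1 and A375 batch 2 with siControl (0.00518). No other member call changed with the block, and at most 2 of 3 libraries correlated best with their own number.

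Leaving out 1 library at a time gave 311 to 592 genes in A375 batch 1, 3 to 6 members in SK-Hep1, 2 to 4 members for SK-Hep1 minus A375 batch 2, and 0 to 1 members and 261 to 1190 genes between batches. Log2 values crossed 0 for PGAP3 in A375 batch 2 (-0.10 to 0.19), SK-Hep1 (-0.29 to 0.0075), the libraries labelled SKBR3 (-0.056 to 0.18) and their response minus A375 batch 2 (-0.12 to 0.17), for CDK12 in A375 batch 2 (-0.095 to 0.011), STARD3 in SK-Hep1 (-0.17 to 0.018), MIEN1 in the libraries labelled SKBR3 (-0.025 to 0.047) and their level minus SK-Hep1 (-0.048 to 0.036), and between batches for EGFR (-0.43 to 0.0086) and ERBB2 (-0.22 to 0.45). The cause of these changes was not tested. Low TPM limit ERBB4, GRB7 and A375 batch 1.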

Other observations

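The HSP90 chaperones that hold the ERBB2 protein moved unevenly. HSP90AB1 fell in SK-Hep1 to 1162 ± 19.7 TPM with siGCDH, against 1746 ± 45.0 TPM with siControl (log2 fold change -0.59), and in the libraries labelled SKBR3 to 894 ± 6.52 TPM, against 1279 ± 22.9 TPM (-0.52). In A375 batch 2 it rose slightly, to 1604 ± 12.2 TPM, against 1502 ± 18.9 TPM (0.09, limma adjusted p = 0.0148), a call that held under 9 of 16 alternatives and was lost, among others, without siControl replicate 1 or 2 or siGCDH replicate 3 (adjusted p up to 0.216). HSP90B1, the form of the endoplasmic reticulum, fell in SK-Hep1 to 563 ± 13.8 TPM, against 878 ± 31.4 TPM. It also fell in the libraries labelled SKBR3, to 370 ± 10.5 TPM, against 483 ± 4.65 TPM. In A375 batch 2 it rose to 662 ± 13.0 TPM, against 587 ± 19.1 TPM (log2 fold change 0.17, limma adjusted p = 0.00733). That last call was lost without the variance trend (adjusted p = 0.0710). HSP90AA1, the inducible form, rose in SK-Hep1 (538 ± 17.7 against 454 ± 16 TPM) and in the libraries labelled SKBR3 (1007 ± 5.12 against 880 ± 27.6 TPM, log2 fold change 0.19), where median scaling turned it to -0.047. Of the 4 genes of the list limma called 3 higher and 1 lower in A375 batch 2 (17.9% and 15.7% of all genes), and 1 higher and 2 lower both in SK-Hep1 (37.3% and 18.2%) and in the libraries labelled SKBR3 (47.3% and 14.7%). In A375 batch 1 it called 0 higher and 1 lower of 4 (1.18% and 6.73%). These families have near-identical pseudogene copies, so that the division of reads is uncertain.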
